A study of Mus musculus with 8 samples.

Results

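The 38 genes described here copy the genome: they mark and fire replication origins, form the polymerases with their sliding clamp and clamp loader, coat single-stranded DNA, finish the lagging strand, make deoxynucleotides and put histones back on the new DNA. They were listed by name, with no threshold on a measured value, from the 13378 genes of the junction table, and all 38 were present and tested. FT1CL is a mouse acute myeloid leukemia line, grown with interleukin-3 (5 ng/mL). It was made from bone marrow of Cop1 cKO/Rosa26-Cre-ERT2 mice, 8 weeks of age and given 5-fluorouracil, by transduction with a pMYs retrovirus carrying Trib1. The 4 Cop1KO libraries come from cells labelled Cop1 ko/ko after 4-hydroxytamoxifen, and the 4 Cop1WT libraries from cells labelled Cop1 +/+ without treatment. All cells of both groups carry the Trib1 virus. Drug, Cre activation and genotype changed together, so they cannot be told apart, and both groups carry the name of a single line in culture. Cre-ERT2 stands under the broadly active Rosa26 locus and is switched on by 4-hydroxytamoxifen. Since nothing says that libraries of a group were separate cultures, p-values measure only the spread between libraries, which may be technical.

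Origins are licensed when the origin recognition complex, with Cdc6 and Cdt1, loads the MCM helicase in G1. At the start of S phase the helicase is activated, polymerase alpha and primase lay primers, and polymerases delta and epsilon extend them while held by the PCNA ring. Ribonucleotide reductase supplies the deoxynucleotides, and many of these genes are textbook targets of E2F factors, read most in cells about to enter or passing S phase. Cop1 encodes a ubiquitin ligase that Tribbles proteins direct to C/EBPα, a transcription factor that halts division and drives myeloid cells toward granulocytes.

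Levels are reads across exon-exon junctions summed per gene, per 1000000 junction reads of the library (RPM), and differences are on the log2(RPM + 1) scale, Cop1KO minus Cop1WT. Libraries held 17333302 to 22469109 junction reads in Cop1KO and 17811247 to 20981993 in Cop1WT. Cop1 itself had 81.3, 70.3, 76.5 and 66.7 RPM in Cop1KO, against 159, 162, 166 and 162 RPM in Cop1WT, a log2 difference of -1.13 (SE 0.08, limma adjusted p = 4.91e-04). Which exons the knockout allele lacks is not given in the labels. Some junctions were read in most libraries and nearly empty in others although the rest of the gene was steady: 152 of the 584 junctions of the 38 genes (26.0%), in 29 of them, against 13.7% of all junctions. Beside each sum of the deposited junctions, the sum over junctions complete in every library is therefore given, with its own test, called the complete-junction sum. The choice of the complete junctions was made after seeing the data.

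Genes of DNA replication were lower in Cop1KO, with at least 1 gene falling in each of the 7 steps. With the deposited sums 21 of the 38 genes fell and 0 rose (limma adjusted p below 0.05), where 12.1% of the 11003 genes tested fell and 8.49% rose. At an unadjusted p below 0.05 the count was 26, but the share of all genes at that cut is not given here, so this count cannot be judged against it. In these 21 genes every Cop1KO library lay below every Cop1WT library, as in 15.4% of all genes. The median log2 difference of the 38 genes was -0.50, against -0.07 over all genes tested. With complete-junction sums 28 of 38 fell and 0 rose, where 18.5% of 10705 genes fell and 11.5% rose, and the median was -0.58. In 32 of the 38 genes every Cop1KO library then lay below every Cop1WT library, which held for 19.2% of all genes. With the replicate number as a block 32 of 38 fell (24.8% of all genes). TMM scaling moved the split of all genes to 8.83% lower and 9.92% higher in the deposited sums, with 20 of the 38 lower and 0 higher. With complete junctions it gave 14.1% lower and 13.7% higher, with 26 of the 38 lower and 0 higher. Summed over the 38 genes, the complete junctions had 2574, 2685, 2355 and 2605 RPM in Cop1KO, against 3739.6, 3873, 3768 and 3684 RPM in Cop1WT. The Cop1KO mean was 67.8% of the Cop1WT mean, and the groups did not overlap. In these bulk samples, fewer cycling cells and less of each RNA per cell cannot be told apart.

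**Figure D1:**
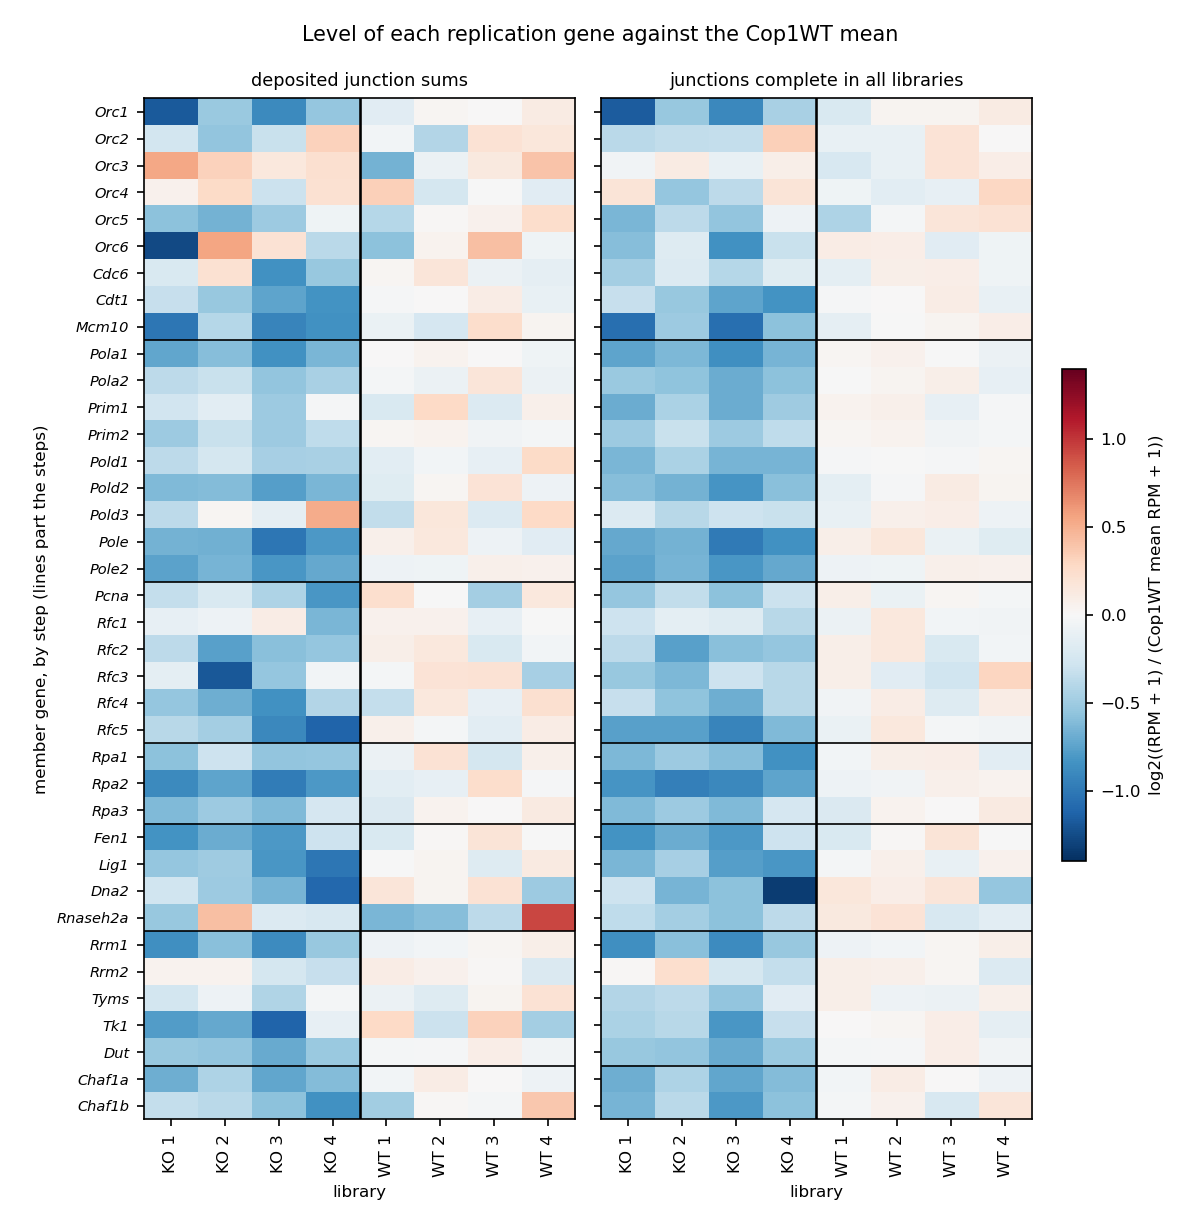
Colour shows the log2 ratio of each library's RPM + 1 to the Cop1WT mean + 1 for 38 genes (rows, lines part the steps) in Cop1KO libraries 1 to 4 and Cop1WT libraries 1 to 4 (columns). Blue Cop1KO columns run through most rows, and the mixed rows of the left panel, such as Rnaseh2a, become even in the right panel, which uses complete junctions.

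Promoters of 4 genes are shown because these genes carry the contrast drawn below: Cdt1, Pola1 and Rrm1 fell, and Rrm2, partner of Rrm1 in 1 enzyme, gave no call. Sequences are from RefSeq on GRCm38.p6 and cover 250 bases before to 50 after the annotated start. Capitals mark letters of the E2F set (TTGGCGC, its variant TTCCCGC, the variant TTGCCGC, and also TTCGCGC) or CCAAT, each searched on both strands.
Cdt1, chr8:122567765-122568064, plus strand: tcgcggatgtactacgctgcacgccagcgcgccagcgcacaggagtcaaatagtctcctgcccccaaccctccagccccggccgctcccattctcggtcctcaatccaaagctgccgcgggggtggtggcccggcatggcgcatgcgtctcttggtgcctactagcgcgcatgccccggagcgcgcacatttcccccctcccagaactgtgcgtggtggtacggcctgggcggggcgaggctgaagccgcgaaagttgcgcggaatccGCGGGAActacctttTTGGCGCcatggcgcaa
Pola1, chrX:93632106-93632405, minus strand: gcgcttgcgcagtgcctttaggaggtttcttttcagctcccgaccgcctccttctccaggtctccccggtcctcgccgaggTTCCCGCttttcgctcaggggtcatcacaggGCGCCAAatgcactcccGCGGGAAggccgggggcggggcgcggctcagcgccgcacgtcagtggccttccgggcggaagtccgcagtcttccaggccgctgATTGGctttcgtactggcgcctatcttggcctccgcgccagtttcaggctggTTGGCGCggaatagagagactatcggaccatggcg
Rrm1, chr7:102441445-102441744, plus strand: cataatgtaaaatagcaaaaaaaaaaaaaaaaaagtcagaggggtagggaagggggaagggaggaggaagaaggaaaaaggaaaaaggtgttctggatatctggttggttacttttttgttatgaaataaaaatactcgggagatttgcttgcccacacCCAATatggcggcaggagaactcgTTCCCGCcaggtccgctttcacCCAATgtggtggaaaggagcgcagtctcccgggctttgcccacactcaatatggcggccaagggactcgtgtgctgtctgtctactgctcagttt
Rrm2, chr12:24708004-24708303, plus strand: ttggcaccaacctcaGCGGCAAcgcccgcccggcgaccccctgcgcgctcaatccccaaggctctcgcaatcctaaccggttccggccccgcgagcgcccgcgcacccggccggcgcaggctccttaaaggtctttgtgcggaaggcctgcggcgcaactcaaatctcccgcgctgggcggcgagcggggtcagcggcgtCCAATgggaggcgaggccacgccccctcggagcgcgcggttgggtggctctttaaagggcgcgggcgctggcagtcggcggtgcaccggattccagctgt
The windows of Cdt1 and Pola1 hold 2 and 4 matches to the E2F set, and those of Rrm1 and Rrm2 hold 1 each. Among the 35 of the 38 genes with a window, 21 had such letters (60%), against 10.9% of 27025 genes. Those 27025 are all genes with a window, whether or not they were read in these cells. The share among read genes alone was not counted. CCAAT stood in 18 of 35 (51.4%), against 41.1% of all genes, and the E box CACGTG in 8 of 35 (22.9%), against 8.09%. In the deposited sums, 12 of the 21 genes with E2F letters fell and 6 of the 14 without them. The sequences read here held no window for 3 of the 38 genes. A match is letters in a window, and binding was not measured here.

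Of the 9 genes of origin licensing and firing, 3 fell with the deposited sums and 4 with complete junctions. Orc1, the subunit of the origin recognition complex whose level follows the cell cycle, had 9.22, 15.1, 11.5 and 14.9 RPM in Cop1KO, against 19.7, 22.5, 22.1 and 24 RPM in Cop1WT. Its log2 difference was -0.78 (SE 0.17, limma adjusted p = 0.0162), the groups did not overlap, and its most-read junction alone gave -0.29 (adjusted p = 0.268). Cdt1 (mm10, chromosome 8, 122568015 to 122573554), which brings the helicase to the complex, had 80.1, 68.9, 59.8 and 55.8 RPM in Cop1KO, against 99.2, 101, 108 and 93.5 RPM in Cop1WT. All 9 of its junctions were complete and lower in Cop1KO, and the difference was -0.61 (SE 0.12, adjusted p = 0.0121). Mcm10, which helps the loaded helicase to fire, had 35.1, 54.1, 37.4 and 39.3 RPM in Cop1KO, against 66.9, 60.6, 85.2 and 73.5 RPM in Cop1WT (-0.78, SE 0.16, adjusted p = 0.0132). Every Cop1KO value of these 3 genes lay below every Cop1WT value.

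Of the other 5 origin recognition subunits, Orc6 alone was called, and with complete junctions only. Orc2, Orc3, Orc4 and Orc5 gave no call in either sum, with complete-junction log2 differences of -0.18 (adjusted p = 0.449), 0.02 (0.923), -0.12 (0.675) and -0.39 (0.127). Orc2 had 73.0, 74.9, 75.1 and 119.9 RPM in Cop1KO complete junctions, against 88.3, 88.2, 109 and 95.3 RPM in Cop1WT. Cop1KO library 4 alone made the groups overlap: without both libraries numbered 4 the Orc2 difference was -0.34 (adjusted p = 0.0236). Orc5 passed with the replicate number as a block (complete junctions, adjusted p = 0.0283) and, in the deposited sums, without Cop1KO library 4 (0.0395). Orc6 fell with complete junctions, at 10.2, 14, 8.41 and 12.6 RPM in Cop1KO, against 17.1, 17.1, 14.2 and 15.3 RPM in Cop1WT (-0.48, SE 0.16, adjusted p = 0.0486, and 0.079 with TMM scaling). Cdc6, the loader that joins the origin recognition complex, had complete-junction levels of 12.8 ± 1.44 RPM in Cop1KO and 16.0 ± 1.29 RPM in Cop1WT (SD, n = 4 each), with no overlap and no call (-0.30, SE 0.11, limma adjusted p = 0.0696). Across the 6 Orc genes, Orc1 had the most negative difference in both sums. The log2 ratio of Orc1 to Orc3 over complete junctions differed by -0.83 and did not pass after adjustment (two-sided exact permutation p = 0.0286, adjusted exact p = 0.129 over 9 gene pairs). The groups did not overlap in this ratio, and 0.0286 is the smallest p that 4 against 4 allows. At that p the adjusted value depended on the other pairs, so it cannot decide whether the subunits differed.

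All 3 replicative polymerases were lower, with 7 of 9 subunit genes falling in the deposited sums and 8 of 9 with complete junctions. Pola1, the catalytic subunit of polymerase alpha (chromosome X, 93304767 to 93632155), had 123, 135, 114 and 131 RPM in Cop1KO, against 206, 212, 206 and 196 RPM in Cop1WT. Both groups were narrow, and the difference was -0.70 (SE 0.08, adjusted p = 0.00187). Its regulatory partner Pola2 had 85.4 ± 6.05 RPM in Cop1KO and 114 ± 10.0 RPM in Cop1WT (SD, n = 4 each, -0.42, SE 0.09, limma adjusted p = 0.0163), or -0.58 from complete junctions. The primase pair differed by the sum used: Prim2, the large subunit, had no affected junction and fell by 0.42 on the log2 scale (SE 0.09, adjusted p = 0.014). When the sum was replaced by the best-read junction of each gene, Prim2 was no longer called (0.0522). Prim1, the catalytic subunit, gave no call with the deposited sum (-0.22, adjusted p = 0.348), and 6 of its 12 junctions were affected. Its complete junctions had 14.8, 17.8, 14.8 and 17.1 RPM in Cop1KO, against 25.5, 25.9, 22.6 and 24.4 RPM in Cop1WT (-0.58, SE 0.10, adjusted p = 0.00427).

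Polymerase epsilon, which copies the leading strand, had the largest polymerase differences. Pole, its catalytic subunit, had 112, 111, 87.4 and 101 RPM in Cop1KO, against 186, 196, 168 and 159 RPM in Cop1WT (-0.78, SE 0.11, adjusted p = 0.00366). All 45 complete junctions of Pole with at least 30 reads on average were lower in Cop1KO. Pole2, an accessory subunit, had 41.9, 44.9, 40.0 and 42.7 RPM in Cop1KO, against 67.3, 67.9, 74.8 and 74.2 RPM in Cop1WT (-0.73, SE 0.08, adjusted p = 0.00217). For polymerase delta, the lagging-strand enzyme, the accessory subunit Pold2 had 69.2 ± 3.68 RPM in Cop1KO and 109.7 ± 12.1 RPM in Cop1WT (SD, n = 4 each, -0.65, SE 0.10, limma adjusted p = 0.0044). The catalytic Pold1 passed narrowly with the deposited sum (-0.37, SE 0.11, adjusted p = 0.0431), where 16 of its 29 junctions were affected. That call was lost on leaving out any 1 of the 8 libraries (0.0554 to 0.111), without both libraries numbered 4 (0.0731), with TMM scaling (0.0694) and with no filter on low values (0.0518). Its complete junctions had 57.3, 65.9, 57.2 and 56.9 RPM in Cop1KO, against 89.3, 90, 89.4 and 91.9 RPM in Cop1WT, well apart (-0.60, SE 0.07, adjusted p = 0.00124). Pold3, a delta subunit that binds PCNA, had 0.04 (SE 0.22, adjusted p = 0.927) with the deposited sum and -0.29 (SE 0.10, adjusted p = 0.0511) with complete junctions, so its sign changed and it gave no call.

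**Figure D2:**
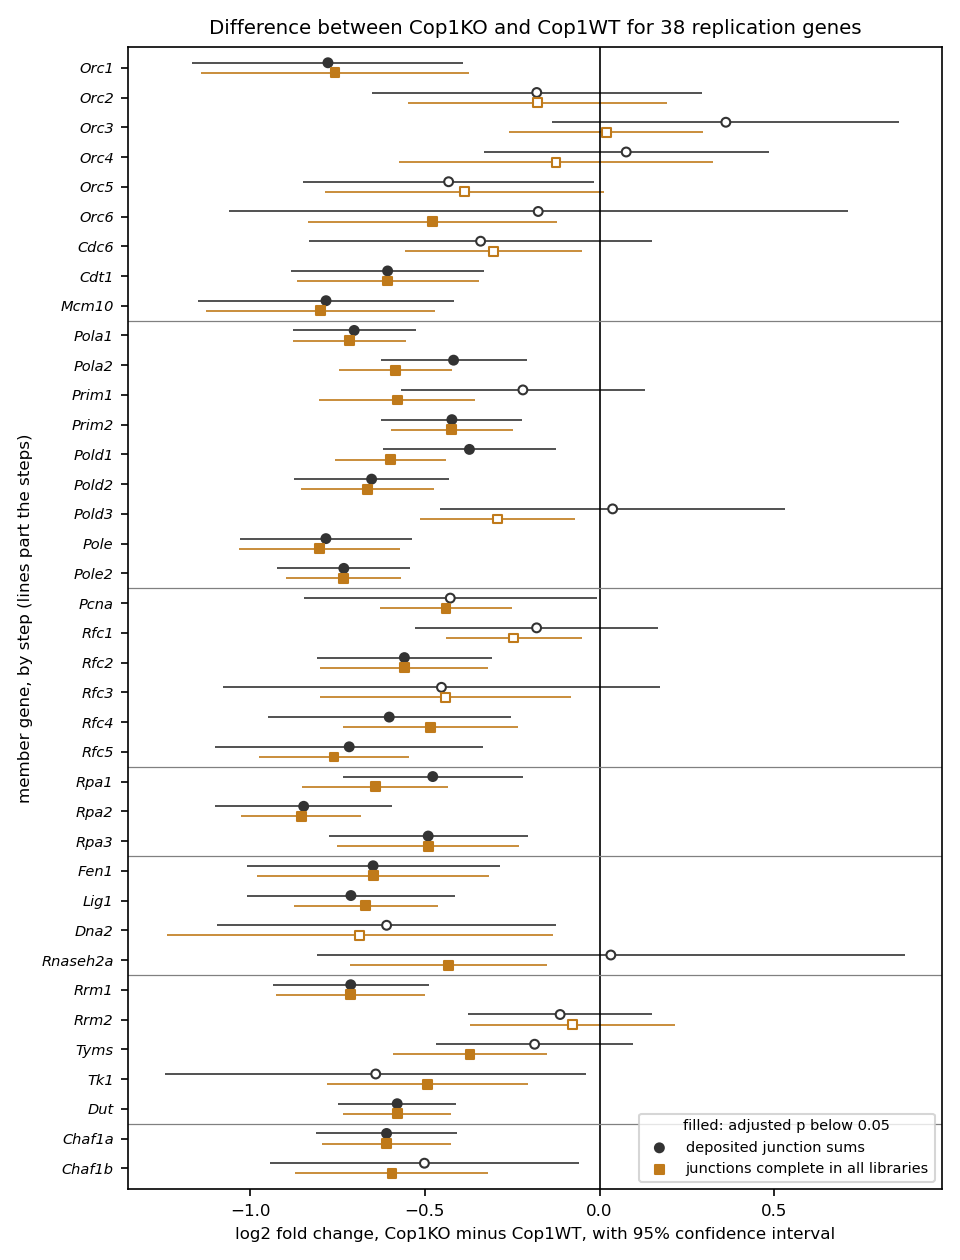
Log2 difference (x axis, Cop1KO minus Cop1WT) with its 95% confidence interval for each of the 38 genes, from deposited sums (circles) and complete-junction sums (squares), filled where the limma adjusted p is below 0.05. Intervals shrink for genes with many affected junctions such as Prim1 and Rnaseh2a, and among the squares that of Orc3 alone lies above 0, at 0.02.

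The sliding clamp fell with complete junctions only. Pcna, the ring that tethers polymerases (chromosome 2, 132249162 to 132253314), had 148, 161, 138 and 106 RPM in Cop1KO, against 221, 186, 134 and 208 RPM in Cop1WT. These deposited sums overlap and gave no call (-0.43, SE 0.18, adjusted p = 0.135), though without Cop1WT library 3 the call was made (0.0407). A main junction held 1187, 1008 and 975 reads in Cop1KO libraries 1 to 3 and 1 read in Cop1KO library 4, against 1733, 3, 2 and 1406 reads in Cop1WT. The complete junctions had 89.7, 103, 87.4 and 106 RPM in Cop1KO, against 138, 123, 133 and 128 RPM in Cop1WT, with no overlap (-0.44, SE 0.08, adjusted p = 0.00625).

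**Figure D3:**
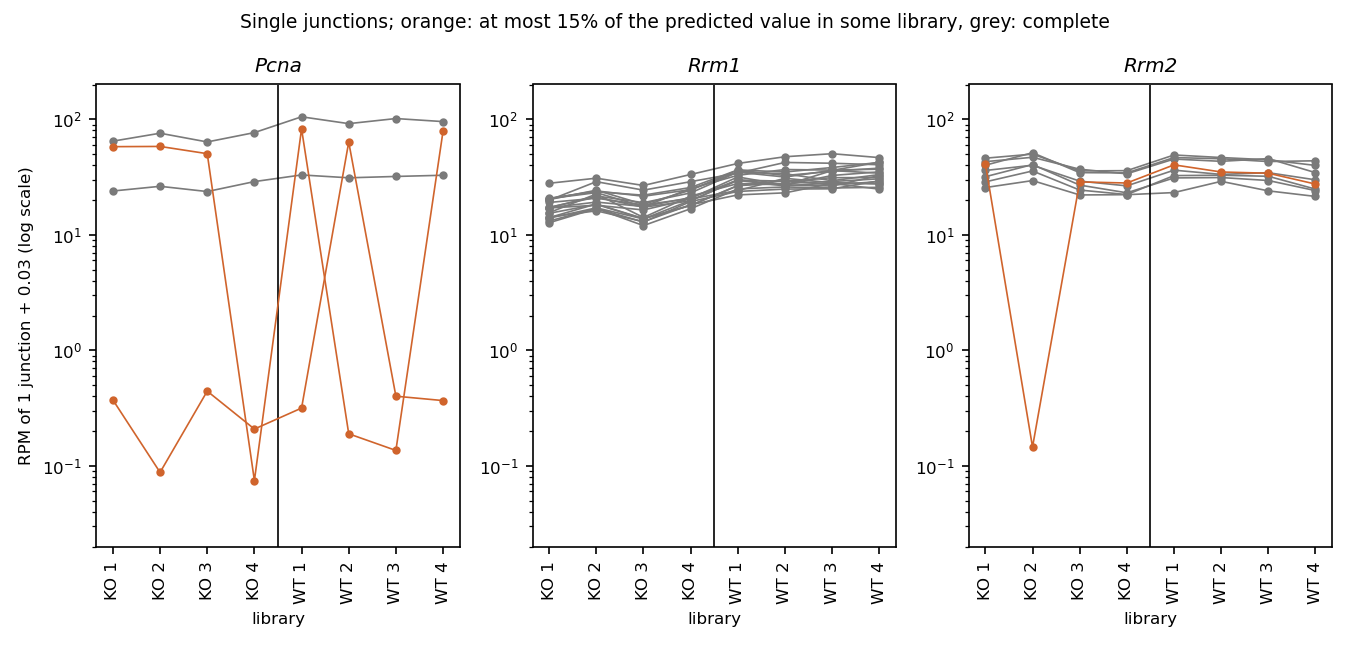
RPM of single junctions (y axis, log scale, 0.03 added) of Pcna, Rrm1 and Rrm2 in Cop1KO libraries 1 to 4 and Cop1WT libraries 1 to 4, for junctions with at least 100 reads in some library. Grey junctions are complete, orange ones fall to at most 15% of their predicted value in at least 1 library, as in Cop1KO library 4 for Pcna, and all 18 junctions of Rrm1 sit lower in Cop1KO while those of Rrm2 run level.

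The clamp loader RFC opens that ring. Rfc2, with no affected junction, had 335, 256, 288 and 298 RPM in Cop1KO, against 458, 480.2, 373 and 423 RPM in Cop1WT (-0.56, SE 0.11, adjusted p = 0.0114). Rfc4 had 36.1 ± 4.74 RPM in Cop1KO and 55.6 ± 9.71 RPM in Cop1WT (SD, n = 4 each, -0.60, limma adjusted p = 0.0269). This call was lost without Cop1KO library 1, 2 or 3 or Cop1WT library 2 or 4 (0.0543 to 0.0746), and complete junctions gave -0.48 (adjusted p = 0.0127). Rfc5 had 61.9, 58.0, 43.0 and 36.9 RPM in Cop1KO, against 85.0, 79.4, 73.1 and 87.0 RPM in Cop1WT (-0.72, adjusted p = 0.0208). It was lost without Cop1KO library 3 or Cop1WT library 1, 2 or 4 (0.0531 to 0.0627), while its complete junctions differed by -0.76 (SE 0.09, adjusted p = 0.00153). The large subunit Rfc1 and the small subunit Rfc3 gave no call in either sum, at -0.25 (adjusted p = 0.0593) and -0.44 (0.065) from complete junctions, and both passed there with the replicate block (0.027 and 0.0494).

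Replication protein A, the trimer that coats single-stranded DNA, was lower in all 3 subunits in both sums. Rpa2, the middle subunit, had 45.9, 51.2, 43.3 and 48.8 RPM in Cop1KO, against 77.7, 79.6, 102 and 84.9 RPM in Cop1WT. Its difference of -0.85 (SE 0.11, adjusted p = 0.0030) was the most negative of the 38 genes, in complete junctions too (-0.85, adjusted p = 4.61e-04). Rpa1, the large DNA-binding subunit, had 184, 224, 187 and 189 RPM in Cop1KO, against 259.8, 316, 232 and 289 RPM in Cop1WT (-0.48, SE 0.11, adjusted p = 0.0214). Rpa3, the smallest, had 29.4 ± 3.98 RPM in Cop1KO and 41.6 ± 4.00 RPM in Cop1WT (SD, n = 4 each, -0.49, SE 0.12, limma adjusted p = 0.0276). The Rpa1 call was lost without Cop1KO library 1 or 3 or Cop1WT library 2 or 4 (0.0549 to 0.0627), and without both libraries numbered 4 (0.0599). The Rpa3 call was lost without Cop1KO library 1, 2 or 3 or Cop1WT library 2, 3 or 4 (0.0562 to 0.0779) and in its most-read junction alone (0.0512). Complete junctions gave -0.64 (adjusted p = 0.0023) for Rpa1 and -0.49 (0.0137) for Rpa3.

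On the lagging strand, the flap nuclease and the ligase fell. Fen1, which trims flaps, had 11.4, 12.6, 11.7 and 17.1 RPM in Cop1KO, against 18, 21.3, 24.1 and 21.0 RPM in Cop1WT (-0.65, SE 0.16, adjusted p = 0.024). It was lost without Cop1KO library 1, 2 or 3 or Cop1WT library 2, 3 or 4 (0.0544 to 0.0698). Lig1, the ligase that seals Okazaki fragments, had 135, 140.2, 112 and 97.5 RPM in Cop1KO, against 197, 204, 174 and 217 RPM in Cop1WT, with no overlap (-0.71, SE 0.13, adjusted p = 0.00908). Dna2, a helicase and nuclease for long flaps, had 76.9, 65.5, 59.4 and 43.2 RPM in Cop1KO, against 106, 96.2, 108 and 65.4 RPM in Cop1WT. Its library 4 was the lowest of each group. It gave no call (-0.61, adjusted p = 0.0766, and 0.063 with complete junctions), but passed with the replicate block (0.00841), without Cop1WT library 4 (0.0351) and without both libraries numbered 4 (0.0118). Rnaseh2a, the catalytic subunit of ribonuclease H2, had 20.7, 41.2, 26.4 and 25.9 RPM in Cop1KO, against 19.1, 19.9, 23.4 and 59.2 RPM in Cop1WT, with 5 of 11 junctions affected. Complete junctions turned its log2 difference of 0.03 (adjusted p = 0.966) into -0.43 (SE 0.12, adjusted p = 0.0302, and 0.0544 with TMM scaling), at 12.1 ± 0.92 RPM in Cop1KO and 16.8 ± 2.51 RPM in Cop1WT (SD, n = 4 each).

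Among the 5 genes of nucleotide supply, the large subunit of ribonucleotide reductase fell and the small one gave no call. Rrm1, the large regulatory and catalytic subunit (chromosome 7, 102441695 to 102469771), had 316, 381, 312 and 398 RPM in Cop1KO, against 547, 557, 584 and 607 RPM in Cop1WT. All 18 junctions were complete, and in each of them every Cop1KO library lay below every Cop1WT library (-0.71, SE 0.10, adjusted p = 0.00366). Rrm2, the small radical-bearing subunit that is made in S phase (chromosome 12, 24708241 to 24714146), had 293, 295, 239 and 227 RPM in Cop1KO, against 305, 297, 288 and 246 RPM in Cop1WT. The groups overlap, and the difference was -0.11 (SE 0.12, 95% confidence interval -0.38 to 0.15, adjusted p = 0.533), or -0.08 (adjusted p = 0.692) from complete junctions. Of its 7 complete junctions with at least 30 reads on average, 5 were lower in Cop1KO and none separated the groups. The log2 ratio of Rrm1 to Rrm2 over complete junctions was 0.33, 0.37, 0.57 and 1.0 in Cop1KO, against 1.05, 1.09, 1.2 and 1.47 in Cop1WT, with Cop1KO library 4 next to Cop1WT. The difference in the ratio was -0.64 (two-sided exact permutation p = 0.0286, the smallest that 4 against 4 allows), and it did not pass after adjustment over the 9 gene pairs compared (adjusted exact p = 0.129). At that smallest p the adjusted value depended on the other pairs, so it cannot decide whether the subunits differed. The pairs were chosen with values known.

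Dut, which removes dUTP before it is built into DNA, had 158, 155, 140.0 and 159 RPM in Cop1KO, against 224, 226, 245 and 221 RPM in Cop1WT (-0.58, SE 0.07, adjusted p = 0.00276). The groups were narrow and far apart. Tyms, the thymidylate synthase, gave no call with the deposited sum (-0.19, adjusted p = 0.322) and fell with complete junctions, at 39.3, 40.5, 35.5 and 46.9 RPM in Cop1KO, against 55.7, 49.9, 49.4 and 55.1 RPM in Cop1WT (-0.37, SE 0.10, adjusted p = 0.0215). Of its 4 well-read complete junctions, 2 were lower and 2 higher in Cop1KO, so the fall was not shared along the gene. Tk1, thymidine kinase of the salvage route, had 13.2, 13.8, 10.2 and 21.4 RPM in Cop1KO, against 28.6, 18.7, 29.5 and 16.5 RPM in Cop1WT. It gave no call (-0.64, adjusted p = 0.121) except without Cop1KO library 4 (0.0377) or without both libraries numbered 4 (0.020), and fell with complete junctions (-0.49, SE 0.13, adjusted p = 0.0198).

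**Figure D4:**
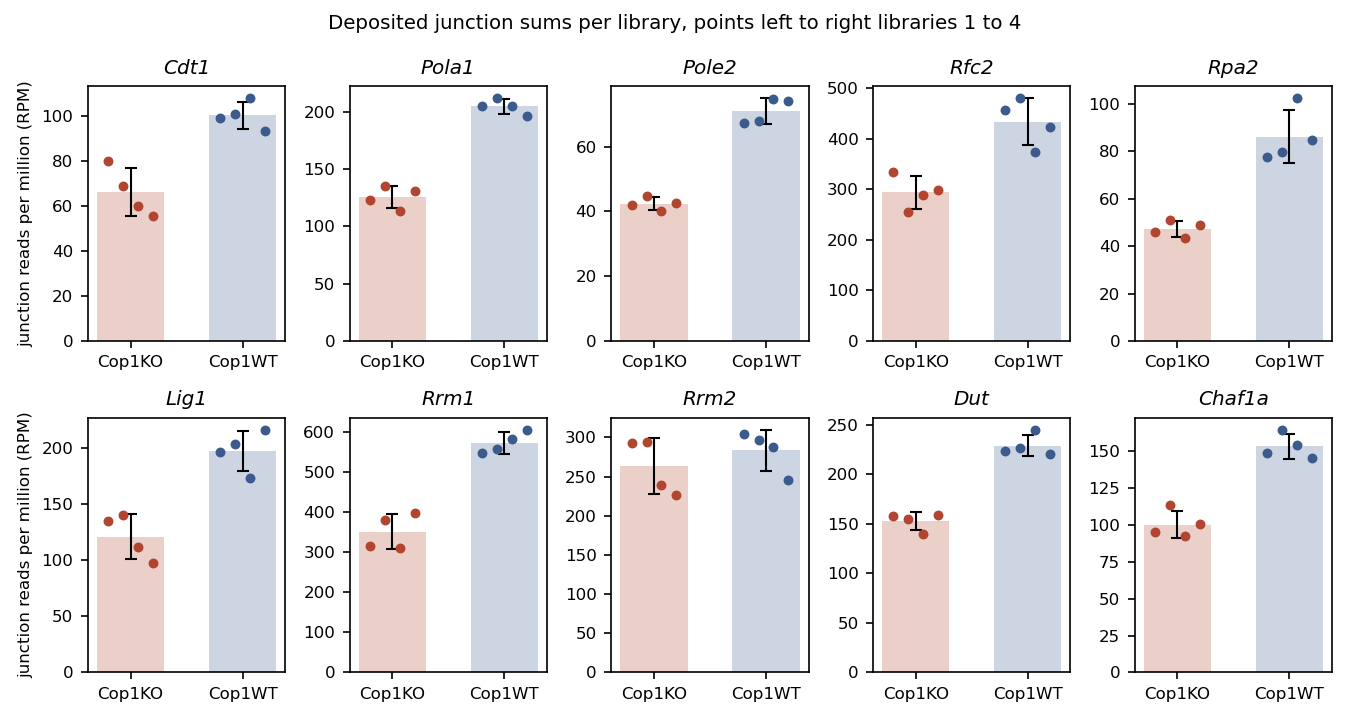
Deposited sums in RPM (y axes from 0) of 10 of the 38 genes, with 1 point per library, bars for the group mean and lines for the SD (n = 4), Cop1KO left of Cop1WT. Rrm1, Dut and Pola1 show separate groups, and Rrm2 averages 263 RPM in Cop1KO and 284 RPM in Cop1WT with overlapping points.

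Chromatin assembly factor 1 places histones behind the fork. Its large subunit Chaf1a had 95.2, 113, 92.2 and 100.3 RPM in Cop1KO, against 149, 165, 154 and 145 RPM in Cop1WT (-0.61, SE 0.09, adjusted p = 0.00408). All 13 junctions separated the groups. Chaf1b, the middle subunit, overlapped in the deposited sums (-0.50, adjusted p = 0.102, and 0.043 without Cop1WT library 1). Its complete junctions had 20.7, 25.2, 18.5 and 21.9 RPM in Cop1KO, against 32.5, 34.4, 28.1 and 37.3 RPM in Cop1WT (-0.59, SE 0.12, adjusted p = 0.00845).

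Most single junctions read in the 38 genes were lower in Cop1KO. Of the 329 complete junctions with at least 30 reads on average, in 37 of the 38 genes, 324 had a lower mean in Cop1KO and 5 a higher one. In 214 of them every Cop1KO library lay below every Cop1WT library. The share over all junctions was not counted. These junctions make up the gene sums given above, so they are not separate support for the differences. The 5 exceptions were in Orc4, Rrm2 and Tyms. Read per junction, which removes the effect of gene length, the median junction of Pcna (47.9 RPM in Cop1KO and 65.3 RPM in Cop1WT), Rrm2 (32.9 and 33.5 RPM), Rfc2 (27.9 and 43.6 RPM) and Dut (25.6 and 39.6 RPM) was read most. Among the 37 genes with such junctions, that of Orc5 (1.88 RPM in Cop1KO and 2.65 RPM in Cop1WT) was read least. Orc1 had no complete junction with at least 30 reads on average, and so has no such median. In Cop1WT the junction levels of Rrm1 (30.7 RPM) and Rrm2 were close, and in Cop1KO Rrm1 had 18.8 RPM.

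Lists of other genes of the fork were counted too. Over all genes tested 12.1% fell and 8.49% rose in the deposited sums, and 18.5% and 11.5% with complete junctions. The same shares stand beside the counts of all lists below. Of the 11 helicase genes 8 fell and 0 rose, led by the MCM subunit Mcm7 (-0.88, SE 0.07, adjusted p = 7.08e-04), while Cdc45, which completes the active helicase, gave no call (-0.17, adjusted p = 0.39). With complete junctions 9 of the 11 fell and 0 rose. Of 23 further origin and fork factors 13 fell and 1 rose in the deposited sums (median -0.50). Topbp1, a scaffold of origin firing, had 288 ± 19.9 RPM in Cop1KO and 453 ± 22.1 RPM in Cop1WT (SD, n = 4 each, -0.65, limma adjusted p = 0.00225), and the checkpoint mediator Clspn fell by 0.68 on the log2 scale (adjusted p = 0.00325). The listed rise was Pole3, a histone-fold subunit of polymerase epsilon (12.3 ± 4.14 RPM in Cop1KO and 1.95 ± 0.89 RPM in Cop1WT, SD, n = 4 each, 2.17, limma adjusted p = 0.00264), but all 4 of its junctions were affected and it has no complete-junction value. With complete junctions 16 of 20 tested factors fell and 0 rose.

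Genes of DNA synthesis outside the S-phase fork, counted in the same way, follow. Of 13 other nucleotide enzymes tested 4 fell and 0 rose (median -0.15), with complete junctions 5 fell and 2 rose. Among those that fell were the dCTP pyrophosphatase Dctpp1 (-0.73, adjusted p = 0.00663) and the nucleoside diphosphate kinase Nme1 (-0.71, 0.0248). Of 10 other histone chaperones 6 fell and 0 rose, with the FACT subunit Supt16 at -0.75 (SE 0.07, adjusted p = 0.00124). With complete junctions 9 of the 10 fell and 0 rose. Of 16 tested polymerases and ligases of repair and of mitochondria 2 fell and 0 rose (median -0.18): the translesion polymerase Poli (-0.60, adjusted p = 0.017) and the end-joining polymerase Polq (-0.35, 0.0478). This count of falls was near the share of all genes that fell (12.1%). With complete junctions 5 fell (Poli, Polq, Primpol, Lig3 and Xrcc1) and 1 rose, the mitochondrial polymerase Polg (0.78, adjusted p = 0.0107). Xrcc1, a repair scaffold, had -0.20 in both sums (adjusted p = 0.0656 deposited and 0.0304 complete). It had no affected junction, so both sums hold the same reads, and only the fit and adjustment over all genes differed. The same holds for every gene without an affected junction, among them the 2 nucleotide enzymes that rose. Complete junctions of the repair and mitochondrial list summed to 431, 459, 454 and 482 RPM in Cop1KO, against 496, 489.9, 479 and 533 RPM in Cop1WT, a Cop1KO mean at 91.4% of Cop1WT. The difference between the lists was not tested.

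Markers of maturity spread widely between the libraries of a group. Of 14 neutrophil markers 8 rose and 0 fell, and their complete junctions summed to 5632, 10955, 5067 and 619.9 RPM in Cop1KO, against 416, 359, 474 and 131 RPM in Cop1WT. Cop1KO library 4 had the lowest sum of its group, of which Padi4, a gene also read in Cop1WT, made 257 RPM (119 to 423 RPM in Cop1WT). Its Ltf, lactoferrin of neutrophil granules, was at 142 RPM, against 2.92 to 8.39 RPM in Cop1WT. Its summed replication genes had 2605 RPM, and those of the other Cop1KO libraries 2355 to 2685 RPM. Without both libraries numbered 4, 21 of the 38 genes fell with the deposited sums (14.1% of all genes) and 30 with complete junctions (22.2%). Of 5 tested erythroid markers the globins Hba-a1 and Hba-a2 fell and 0 rose. Erythroid markers summed to 63.0, 47.7, 123 and 431 RPM in Cop1KO, against 409, 279.8, 383 and 571 RPM in Cop1WT. B cell markers summed to at most 2.83 RPM in Cop1KO and 3.38 RPM in Cop1WT, and the 1 tested gave no call. T cell markers summed to at most 8.63 RPM in Cop1KO and 38.7 RPM in Cop1WT, and 1 of 2 tested fell: the kinase Lck had 2.78 RPM in Cop1KO and 24.2 RPM in Cop1WT on average (-2.87, adjusted p = 0.00698). Stromal and epithelial markers summed to 30.3 to 81.6 RPM in Cop1KO and 159 to 214 RPM in Cop1WT, and 1 of 2 tested fell: the growth factor receptor Pdgfrb had 49.3 RPM in Cop1KO and 177 RPM in Cop1WT on average (-1.91, adjusted p = 0.00566). The collagens Col1a1 and Col1a2 were at most 0.31 RPM in Cop1KO and 0.39 RPM in Cop1WT. Pax5, Ms4a1, Cd3e, Cd4, Cd8a, Col3a1, Cdh5, Krt8 and Alas2 were not analysed here. Of 12 myeloid markers of the line, all of them read, 5 rose and 1 fell. Among those that rose was the leukocyte phosphatase Ptprc, at 758 ± 161 RPM in Cop1KO and 473 ± 63.6 RPM in Cop1WT (SD, n = 4 each). The 1 that fell was Cd34, at 70.6 RPM in Cop1KO and 200 RPM in Cop1WT on average (-1.56, limma adjusted p = 0.0332). Of 7 mast cell and basophil markers 5 rose and 0 fell, and they summed to 14985 ± 2303 RPM in Cop1KO and 12958 ± 886 RPM in Cop1WT (SD, n = 4 each). Most of this sum was Cpa3 (11699 RPM in Cop1KO and 12276 RPM in Cop1WT on average), which gave no call, as did Fcer1a. Of the 5 that rose, Cma1 had 247 RPM in Cop1KO and 76.5 RPM in Cop1WT on average, and Mcpt8 had 2381 and 377 RPM. The part of these cell states in the replication differences was not tested.

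**Figure D5:**
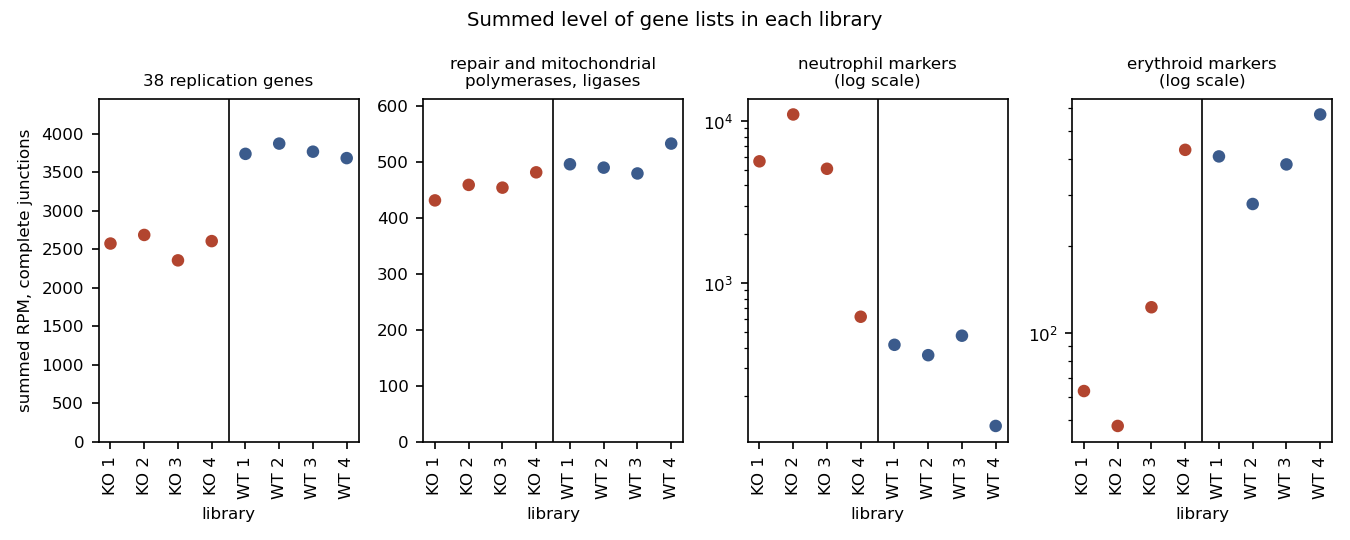
Summed RPM over complete junctions (y axes, the 2 on the right in log scale) of the 38 replication genes, of repair and mitochondrial polymerases and ligases, of neutrophil markers and of erythroid markers, with 1 point per library. Replication genes separate all 4 Cop1KO libraries (2355 to 2685 RPM) from Cop1WT (3684 to 3873 RPM), and Cop1KO library 4 has the lowest neutrophil and the highest erythroid sum of its group.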

How the data were processed

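RNA of the 8 libraries was purified and made into strand-specific libraries from 2 µg each, per the labels' protocols. The submitters' processing notes name Trimmomatic 0.39, kallisto and mm10. The deposited table holds 134051 exon junctions, with values that the authors scaled to each library (unit signal), floored at 0.854 for 0 reads. Their aligner and annotation are not given in the sources read here. Each value came to whole reads plus 1 times a step of its library (within 0.001 read), so junction reads were summed per gene and given per 1000000.

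limma 3.58.1 in R 4.3.3 was fitted with trend and robust settings on log2(RPM + 1) to the 11003 genes with a mean of 1 RPM or more, all of which entered the Benjamini-Hochberg adjustment, and calls were made below 0.05. It was tested on simulated data. Scaling, pseudocount, filter, block, left-out libraries and junction rules were varied. Libraries with the same number deviated together (correlations 0.316, 0.293, 0.356 and 0.550, for other numbers at most 0.146), so the numbers were taken to pair them, as a hint from the data. A junction was called affected, a rule added after seeing the data, when any library held at most 15% of the reads predicted by the gene's steady junctions where at least 30 were predicted. The members and lists were chosen with earlier results of these data known. Genes outside the 38 were named as up to 3 smallest adjusted p per list (1 such gene is not reported here), beside Cop1, Cdc45, Polg, Primpol, Lig3 and marker genes, all but Cop1 singled out after their values were seen.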

Additional observations from a re-analysis of the deposited data

Results flagged for a closer look

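Of 152 sets of 4 libraries (38 genes, both groups, both kinds of sum), 5 held a library far from the other 3, where chance gives about 1 in 20. Rpa1 had 224 RPM in Cop1KO library 2 of the deposited sums, against 184 to 189 RPM in the other Cop1KO libraries. Rnaseh2a had 59.2 RPM in Cop1WT library 4, against 19.1 to 23.4 RPM in the other Cop1WT libraries, and its complete-junction value there was 15 RPM. Among complete-junction sums, Orc2 had 120 RPM in Cop1KO library 4 and 73.0 to 75.1 RPM in the other Cop1KO libraries. Pold1 had 65.9 RPM in Cop1KO library 2 and 56.9 to 57.3 RPM in the others, all below the Cop1WT values. Dna2 had 60.6 RPM in Cop1WT library 4, within the Cop1KO range, and 94.7 to 99.9 RPM in the other Cop1WT libraries. The cause of these values was not tested.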

How the results depend on the processing

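The count of the 38 genes lower in Cop1KO was 21 and that of higher ones 0. Under 22 alternatives the higher count stayed 0, and leaving out 1 library at a time gave 15 to 22 lower. The replicate block with affected junctions left out gave 34 lower by the planned rule (at most 6 reads where 100 were predicted) and 32 by the wide rule used in the text. Over all genes 2264 passed, and 1215 (without Cop1KO library 3) to 2991 (without Cop1KO library 4) on leaving out 1 library. The planned rule with the block gave 4295, the wide rule with the block 4495, and the wide rule without both libraries numbered 4 gave 3976. In the deposited and the complete-junction sums, the block changed no call of the 38 genes other than those given with it. Of the values of single genes, 708 kept direction and side of the threshold, 56 passed it newly, 40 lost it and 32 changed sign. All 32 were in genes without a call in the deposited sums: Orc4 (0.08), Orc6 (-0.18), Pold3 (0.04), Rnaseh2a (0.03) and Rrm2 (-0.11). Of these genes, Orc6 and Rnaseh2a were called lower with complete junctions. Without both libraries numbered 4, Orc4 had -0.022 and Pold3 -0.032. By the planned rule, with or without the block, Orc4 had -0.34, Pold3 -0.33 and Rnaseh2a -0.43. By the wide rule, with or without the block, they had -0.12, -0.29 and -0.43, without both libraries numbered 4 -0.13, -0.31 and -0.50, and with TMM scaling -0.055, -0.22 and -0.36, where Rrm2 had 0.00035. The most-read junction alone gave -0.27 for Pold3 and -0.50 for Rnaseh2a. On leaving out 1 library, Orc4 ranged between -0.00022 and 0.20, Orc6 between -0.43 and 0.17, Pold3 between -0.13 and 0.16 and Rnaseh2a between -0.15 and 0.40. The cause was not tested. The planned count tests (edgeR and DESeq2) were not run: although the values came to whole reads, their unit was entered as a scaled signal and not as counts. Genes with few complete junctions, such as Rnaseh2a with 1 that was well read, rest on few reads.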
